A study of Mus musculus with 4 samples.

Results

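Levels of 10 genes of the MHC class I presentation pathway were followed across the cell types of MC38 tumours: the heavy chain genes H2-K1 and H2-D1, the light chain gene B2m, the peptide transporter genes Tap1 and Tap2, the tapasin gene Tapbp, the immunoproteasome subunit genes Psmb8, Psmb9 and Psmb10, and the regulator gene Nlrc5. They were chosen by name, not by their values, and each matched 1 of the 32285 genes in both expression matrices. MC38 is a mouse colon carcinoma line. The tumours grew under the skin of C57BL/6 female recipients aged 12 to 16 weeks and were taken on day 18. Control mice carried floxed alleles of Prdm1 (Prdm1 f/f), and knockout mice carried the same floxed alleles together with CD19cre, a cre recombinase driven by a B cell gene. Prdm1 encodes Blimp-1, a transcription factor needed for plasma cell differentiation. Cells from 11 recipients per genotype were pooled, and viable B220+ and CD138+ cells were sorted and mixed; the mixing ratio is not given in the sources used here. Each genotype gave 1 expression library and 1 B cell receptor library.

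MHC class I molecules display peptides from inside the cell to CD8 T cells. The proteasome cuts proteins into peptides, TAP carries the peptides into the endoplasmic reticulum, and tapasin helps to load them onto a heavy chain paired with beta-2-microglobulin. Interferon induces most genes of the pathway, including the immunoproteasome subunits that replace constitutive ones, and NLRC5 acts as a transactivator of class I promoters. In C57BL/6 mice the classical heavy chains are K and D of the H-2b haplotype. Nearly all nucleated cells carry class I molecules, so no class here serves as a background that lacks the genes, and shares of cells with a UMI are not given.

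Of the 10 genes, 7 lie on chromosome 17 (GRCm38.p6). Tapbp spans positions 33919478 to 33929290, H2-K1 33996012 to 34000619, Psmb9 34182030 to 34187330, Tap1 34187556 to 34197225, Psmb8 34198195 to 34201454, Tap2 34204479 to 34216321 and H2-D1 35263094 to 35267497. B2m lies on chromosome 2 at 122147687 to 122153082. Psmb10 and Nlrc5 lie on chromosome 8, at 105935728 to 105938392 and 94434335 to 94527272. Promoter sequence from RefSeq (GRCm38.p6) was matched for 8 of the 10 genes, all but Tap2 and Nlrc5. The stretches below are shown because both heavy chain genes and B2m, whose products form the class I molecule, carry the same pair of letter patterns at the same spacing, and because Psmb9 and Tap1 start on opposite strands of 1 shared stretch. Each is written 5′ to 3′. Capitals mark letters of the NF-kB decamer consensus, the interferon-stimulated response element (GAAANNGAAA), the X2 site (TGACG) and the Y box (CCAAT, or ATTGG on the other strand). In H2-K1 and H2-D1 the NF-kB letters were found on both strands at overlapping positions.
H2-K1, chr17:34000348-34000477, minus strand: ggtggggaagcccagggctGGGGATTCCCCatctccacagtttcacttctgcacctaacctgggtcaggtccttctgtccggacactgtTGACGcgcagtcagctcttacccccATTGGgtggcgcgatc
H2-D1, chr17:35262904-35263093, plus strand: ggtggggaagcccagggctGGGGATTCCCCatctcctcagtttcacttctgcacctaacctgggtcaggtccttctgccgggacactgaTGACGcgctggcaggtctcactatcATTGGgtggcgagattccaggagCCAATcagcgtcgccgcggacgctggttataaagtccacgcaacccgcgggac
B2m, chr2:122147537-122147686, plus strand: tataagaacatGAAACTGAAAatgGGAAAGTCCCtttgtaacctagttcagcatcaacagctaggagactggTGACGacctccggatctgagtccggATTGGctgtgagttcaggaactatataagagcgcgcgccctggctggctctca
Psmb9 and Tap1, chr17:34187331-34187555, plus strand: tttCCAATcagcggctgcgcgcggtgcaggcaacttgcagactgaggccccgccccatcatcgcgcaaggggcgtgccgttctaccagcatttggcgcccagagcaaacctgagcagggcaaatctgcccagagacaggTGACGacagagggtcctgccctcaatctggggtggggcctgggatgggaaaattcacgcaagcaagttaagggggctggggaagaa

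In H2-K1 the first base of TGACG stood 41 bases before the listed start and that of ATTGG 16 bases before it. The RefSeq record of H2-K1 extends beyond that start, so the printed bases lie within the outer span of the gene. The same letters began 101 and 76 bases before the start of H2-D1, and 78 and 53 bases before the start of B2m, so the first bases stood 25 apart in all 3 genes. That spacing was picked after these matches had been seen. It occurred in 18 of 32851 promoter windows of 250 bases before a start (0.0548%), and H2-M3, which encodes a class I-like heavy chain, was among the 15 genes that hold it. The first 130 bases printed for H2-D1 were identical to those of H2-K1 at 117 positions. Searched on both strands, the NF-kB letters were in 3 of the 8 windows (3.90% of all windows), TGACG in 5 (17.8%), CCAAT in 6 (33.8%), GAAANNGAAA in 1, that of B2m (2.98%), and the gamma-activated site TTCNNNGAA in 1, that of Psmb8 (7.02%). The window of Psmb10 held none of them. The starts of Psmb9 and Tap1 bound a stretch of 225 bases. The TGACG and CCAAT of these genes are the same sites in that stretch and were counted for each gene, so the windows are not independent. A match describes letters in a window and shows no binding.

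The control library held 816 barcodes and 6976374 UMIs (median 5851), and the knockout library 897 barcodes and 5463434 UMIs (median 3966). After filtering, 804 and 863 cells were clustered without the class I genes, and classes were named from marker genes with the suffix "-like". B-like cells numbered 226 in the control and 269 in the knockout library, plasma-like cells 47 and 0, plasmacytoid dendritic (pDC)-like cells 38 and 38, macrophage-like cells 96 and 45, NK-like cells 154 and 247, T-like cells 69 and 75, and basophil-like cells 34 and 45. The 0 plasma-like cells of 863 allow a share of up to 0.348% (3 counts of the total). Every class had at least 9 of its own markers detected, and basophil-like cells expressed the basophil protease genes Mcpt8 (616 and 581 CPM) and Prss34 (179 and 359 CPM) with 0 UMIs of the mast cell protease genes Cma1 and Mcpt4. Prdm1 itself gave 1 UMI in control and 15 UMIs in knockout B-like cells. Which exons are floxed is not given in the sources used here, so its count says little about deletion. In the same cells the plasma cell marker Jchain gave 6 and 110 UMIs, and the summed plasma cell markers stood at 969 and 1383 CPM. Whether antibody-secreting cells lie within the knockout B-like class was not tested. B cell markers were also found outside the B-like class: Cd79a stood at 49.1 CPM in control and 147 CPM in knockout T-like cells, and at 9.48 and 108 CPM in macrophage-like cells. The libraries shared 3 barcodes. Dates stamped in the file names differ between control and knockout, and a library effect and a genotype effect cannot be told apart. With 1 pooled library per genotype no test was possible. Levels are UMIs per 1000000 UMIs of the class (CPM), and every interval is a 95% interval that covers counting error only.

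Among the heavy chains, H2-K1 was highest in T-like cells and lowest in basophil-like cells in both libraries. In the control library its level was 4120 CPM (3949 to 4296) in T-like, 3046 in NK-like, 2843 in pDC-like, 2621 in B-like, 2031 in macrophage-like, 1622 in plasma-like and 1009 (832 to 1214) in basophil-like cells. In the knockout library it was 4452 CPM (4252 to 4658) in T-like, 3855 in pDC-like, 3305 in NK-like, 2963 in B-like, 2461 in macrophage-like and 1558 (1352 to 1787) in basophil-like cells. The highest class stood 4.08-fold above the lowest in the control and 2.86-fold in the knockout library. Intervals of neighbours overlapped only among NK-like, pDC-like and B-like cells of the control library. Without the UMIs of immunoglobulin, mitochondrial and ribosomal protein genes, T-like cells stayed highest and basophil-like cells lowest. On that scale pDC-like cells stood at 0.90 times (0.83 to 0.98) the B-like level in the control library. In the knockout library they stood at 1.05 times (0.97 to 1.14) that level.

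H2-D1 did not follow the same order. Its control level was 3387 CPM in T-like, 3314 (2985 to 3669) in basophil-like, 3138 in macrophage-like, 2972 in pDC-like, 2808 in NK-like, 2507 in B-like and 1527 (1452 to 1606) in plasma-like cells. Its knockout level was 3810 CPM in pDC-like, 3559 in T-like, 3491 (3178 to 3826) in basophil-like, 3436 in macrophage-like, 3218 in NK-like and 2746 in B-like cells. Each neighbour from the top class down to NK-like cells overlapped the next in both libraries, so basophil-like cells, lowest for H2-K1, could not be separated from the highest classes for H2-D1. H2-K1 therefore made up 23.3% (19.6 to 27.4) of the UMIs of both heavy chains in control and 30.9% (27.4 to 34.5) in knockout basophil-like cells. The share was 39.3% and 41.7% in macrophage-like cells and between 48.9% and 55.6% in the other classes of both libraries. H2-K1, H2-D1 and the H2-Q genes are near-identical in stretches, and reads that fit more than 1 of them may have been dropped or misassigned, so this split is uncertain.

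B2m, the light chain shared by all class I molecules, was highest in macrophage-like and T-like cells over all UMIs. The control library gave 3508 CPM in macrophage-like, 3506 in T-like, 2908 in pDC-like, 2890 in NK-like, 2315 in plasma-like, 1958 in B-like and 920 (751 to 1116) in basophil-like cells. The knockout library gave 3679 CPM in macrophage-like, 3675 in T-like, 3288 in NK-like, 2845 in pDC-like, 2163 in B-like and 1360 (1167 to 1575) in basophil-like cells. B-like cells were thus the next to lowest class in both libraries, above basophil-like cells and, in the control library, below plasma-like cells, with no overlap of intervals. Without the UMIs of immunoglobulin, mitochondrial and ribosomal protein genes, the order at the top changed. B2m was then highest in plasma-like cells at 5718 CPM, followed by 4679 in T-like, 3988 in NK-like and 3955 CPM in macrophage-like cells of the control library, and in the knockout library it was 4971 CPM in T-like, 4534 in NK-like and 4185 CPM in macrophage-like cells.

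**Figure D1:**
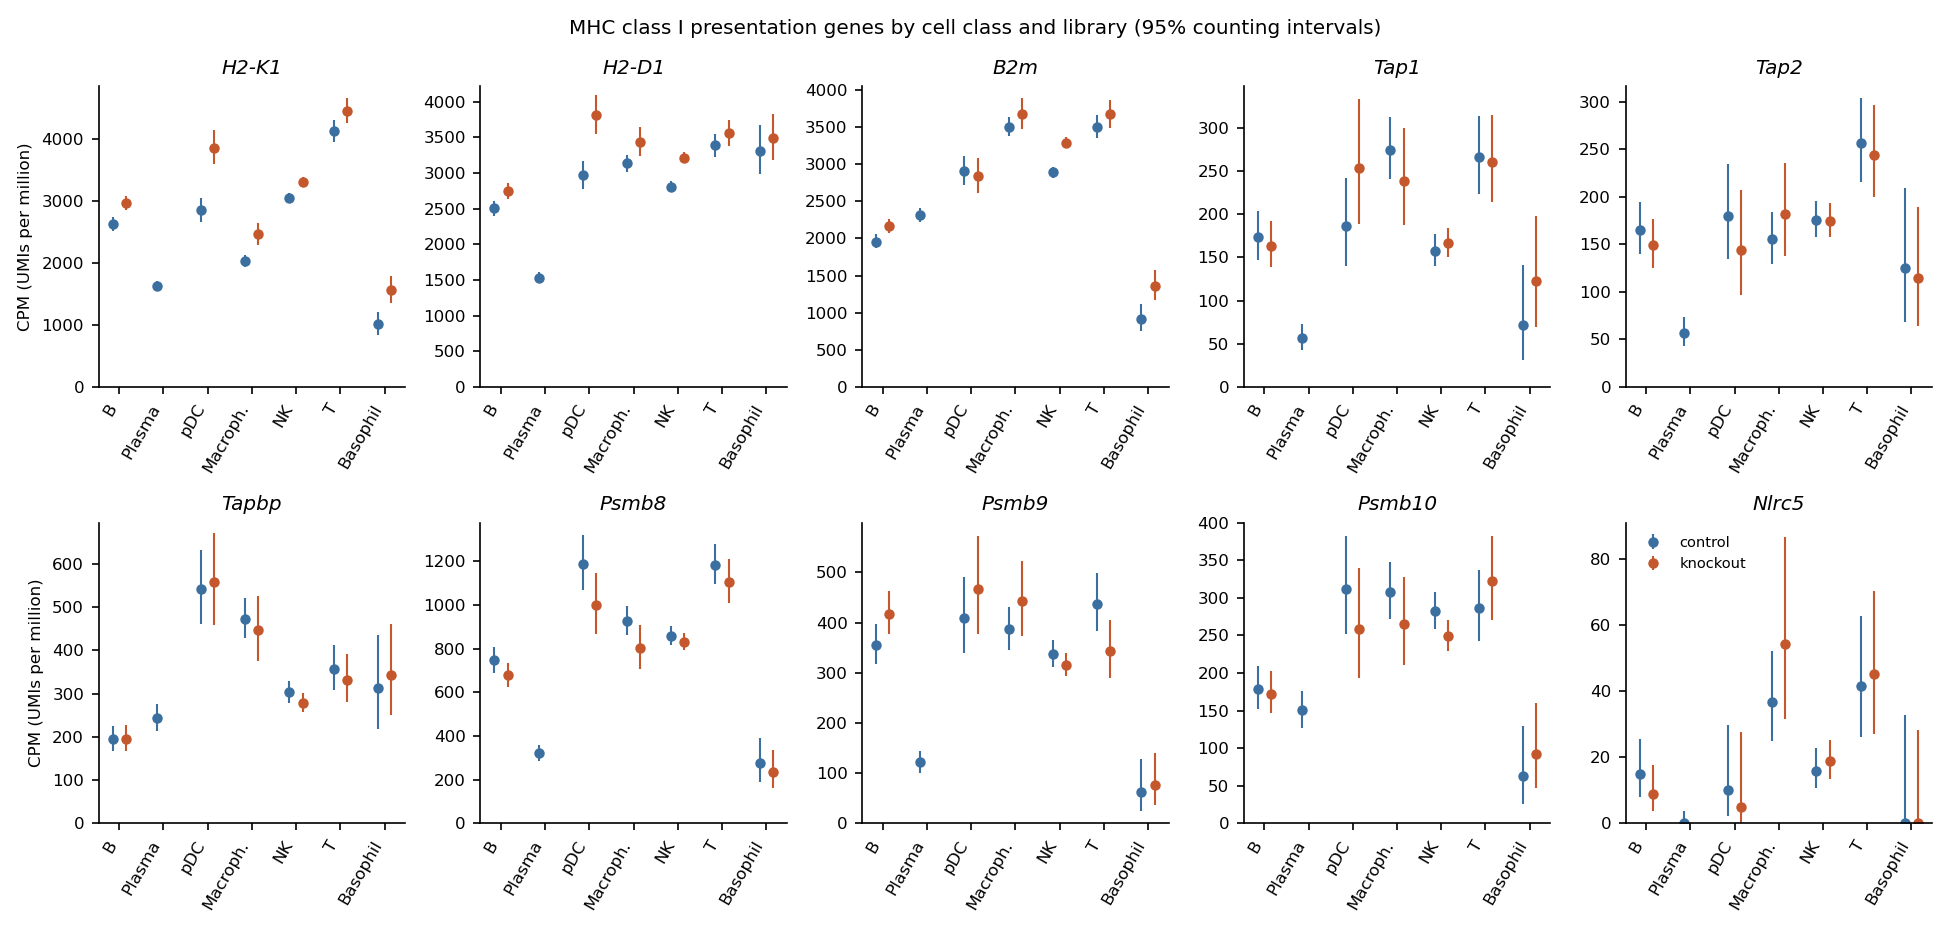
Level of each of the 10 genes in CPM (linear axis from 0, own scale per panel) by cell class, control in blue and knockout in orange; points are 1 library each and bars are 95% counting intervals. H2-K1 and B2m are lowest in basophil-like cells, H2-D1 is not, and the plasma-like class exists in the control library only.

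Of the genes for peptide transport and loading, Tap1 and Tap2 encode the 2 chains of TAP. Tap1 in the control library was at 275 CPM in macrophage-like, 266 in T-like, 186 in pDC-like, 174 in B-like, 158 in NK-like, 71.5 in basophil-like and 56.2 (42.4 to 72.9) in plasma-like cells. In the knockout library it was at 261 CPM in T-like, 254 in pDC-like, 239 in macrophage-like, 167 in NK-like, 164 in B-like and 122 in basophil-like cells. Over all UMIs, both libraries placed T-like and macrophage-like cells above B-like and NK-like cells, with overlapping intervals only for macrophage-like and B-like cells of the knockout library. Without immunoglobulin, mitochondrial and ribosomal protein UMIs, the macrophage-like level of Tap1 was 1.19 times (0.97 to 1.47) the B-like level in the control library. In the knockout library it was 1.08 times (0.81 to 1.43). Tap2 was highest in T-like cells, with 257 CPM (control) and 245 CPM (knockout). Its other control levels were 180 CPM in pDC-like, 176 in NK-like, 166 in B-like, 155 in macrophage-like, 125 in basophil-like and 57.2 (43.3 to 74.1) in plasma-like cells. Its other knockout levels lay between 115 CPM in basophil-like and 182 CPM in macrophage-like cells, with overlapping neighbours throughout.

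Tapbp encodes tapasin, which bridges TAP and the empty heavy chain. It was highest in pDC-like cells, at 542 and 557 CPM in the control and knockout library, followed by macrophage-like cells at 473 and 446 CPM. T-like cells had 357 and 332 CPM, basophil-like cells 313 and 344 CPM, and NK-like cells 303 and 279 CPM. Plasma-like cells had 243 CPM (213 to 275), and B-like cells were lowest at 194 (166 to 226) and 196 (168 to 227) CPM, 2.79-fold and 2.84-fold below pDC-like cells. B-like cells, a professional antigen-presenting type, thus had the lowest tapasin transcript level in CPM among these classes in both libraries, although the plasma-like interval overlapped theirs.

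The immunoproteasome subunit Psmb8 was highest in pDC-like (1190 and 999.9 CPM) and T-like cells (1186 and 1106 CPM). Its levels were 927 and 803 CPM in macrophage-like, 861 and 833 CPM in NK-like and 746 and 680 CPM in B-like cells. Plasma-like cells had 322 CPM (288 to 359), and basophil-like cells 277 (188 to 393) and 237 (161 to 336) CPM. Psmb9 showed the widest range of the genes with counts in every class. It stood at 438 and 344 CPM in T-like, 410 and 468 CPM in pDC-like, 386 and 443 CPM in macrophage-like, 355 and 418 CPM in B-like and 337 and 316 CPM in NK-like cells. Plasma-like cells had 121 CPM (101 to 145) and basophil-like cells 62.5 (25.1 to 129) and 76.4 (36.6 to 140) CPM, from 7 and 10 UMIs. The highest class stood 7.01-fold above the lowest in the control and 6.12-fold in the knockout library. Psmb10 was at 312 and 259 CPM in pDC-like, 308 and 265 CPM in macrophage-like, 287 and 323 CPM in T-like and 282 and 250 CPM in NK-like cells. B-like cells had 179 and 173 CPM, plasma-like cells 150 CPM and basophil-like cells 62.5 and 91.7 CPM, and these 3 classes were the lowest over all UMIs. Without immunoglobulin, mitochondrial and ribosomal protein UMIs, plasma-like cells had 372 CPM of Psmb10, above the 347 CPM of macrophage-like cells of the same library. On that scale macrophage-like cells had 0.82 times (0.70 to 0.96) the B-like level of Psmb9 in the control library. The knockout value was 0.78 times (0.64 to 0.95). For Psmb8 the values were 0.94 times (0.84 to 1.04) and 0.87 times (0.75 to 1.01).

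Each inducible subunit takes the place of a constitutive one: Psmb8 of Psmb5, Psmb9 of Psmb6 and Psmb10 of Psmb7. Within a pair the share of the inducible subunit does not depend on what fills the rest of the library. Psmb8 made up 81.9% and 82.1% of the Psmb8 and Psmb5 UMIs in control and knockout B-like cells, 55.8% (51.7 to 59.9) in plasma-like cells, and 72.1% to 82.8% in every other class and library. Psmb9 made up 66.9% and 70.1% of its pair in B-like cells and 36.7% (31.5 to 42.1) in plasma-like cells, against 53.8% to 70.5% elsewhere. For Psmb10 the plasma-like share of 73.2% (66.6 to 79.1) lay within the range of the other classes, 68.0% to 83.9%. In the first 2 pairs the plasma-like interval lay below those of every other class but the sparse basophil-like cells, whose intervals overlapped it, and in the third it did not stand apart. Thinning the cells or naming classes from each cell's own markers moved the plasma-like shares between 48.4% and 58.3% for Psmb8 and between 36.7% and 50% for Psmb9. At its upper end the Psmb9 share reached the lower end for macrophage-like cells, 48.4% and 50%, and that of control basophil-like cells, 50%.

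**Figure D2:**
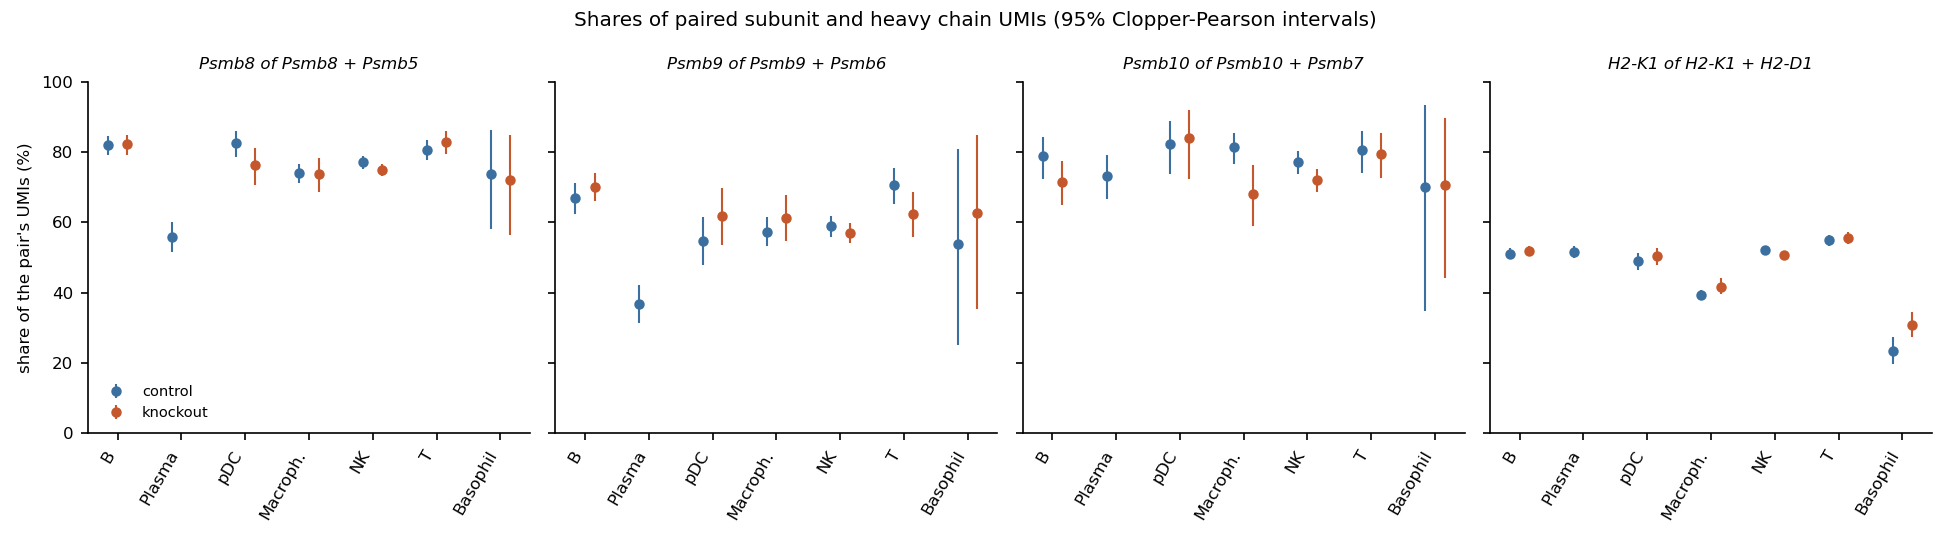
Share in percent of the UMIs of a gene pair by class (axis from 0 to 100), with 95% Clopper-Pearson intervals; panels give the inducible proteasome subunits against their constitutive partners, and H2-K1 against H2-D1. Plasma-like cells are lowest for Psmb8 (55.8%) and Psmb9 (36.7%), and basophil-like cells are lowest for H2-K1 (23.3% and 30.9%).

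Nlrc5 was sparse. It gave 13 and 8 UMIs in B-like, 0 in plasma-like, 3 and 1 in pDC-like, 31 and 17 in macrophage-like, 30 and 42 in NK-like, 22 and 19 in T-like and 0 and 0 in basophil-like cells. In CPM this was 36.7 and 54.2 in macrophage-like and 41.5 and 45.1 in T-like cells, above 15.9 and 18.7 in NK-like and 14.9 and 8.9 in B-like cells. The 0 UMIs of plasma-like cells have an upper bound of 3.70 CPM (exact Poisson) and lie under the interval of the B-like cells, whereas those of basophil-like cells allow up to 33.0 and 28.2 CPM and overlap the intervals of all other classes but the macrophage-like cells of the knockout library.

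The difference in class I levels between plasma-like and B-like cells of the control library depended on the gene and on what the level was set against. Over all UMIs, plasma-like cells had 0.62 times (0.58 to 0.66) the H2-K1 level of B-like cells, 0.61 times (0.57 to 0.65) for H2-D1, 0.32 times (0.23 to 0.44) for Tap1, 0.35 times (0.25 to 0.47) for Tap2, 0.43 times (0.38 to 0.49) for Psmb8 and 0.34 times (0.27 to 0.42) for Psmb9. Psmb10 was at 0.84 times (0.67 to 1.06) and B2m at 1.18 times (1.11 to 1.26), and Tapbp was higher in plasma-like cells (243 against 194 CPM). Immunoglobulin transcripts took 47.2% of the UMIs of plasma-like cells and 2.25% of those of control B-like cells. Without the UMIs of immunoglobulin, mitochondrial and ribosomal protein genes, H2-K1 was at 4006 CPM in plasma-like and 3924 CPM in B-like cells, a ratio of 1.02 (0.96 to 1.09), and H2-D1 at 3773 and 3753 CPM, a ratio of 1.01 (0.94 to 1.07). Tap1 was lower on that scale too, with a ratio of 0.53 (0.39 to 0.73), as were Tap2 at 0.57 (0.41 to 0.78), Psmb8 at 0.71 (0.62 to 0.81) and Psmb9 at 0.56 (0.45 to 0.70). B2m was higher at 1.95 (1.83 to 2.08), Tapbp at 2.06 (1.69 to 2.52) and Psmb10 at 1.38 (1.10 to 1.74). The lower heavy chain level was thus not seen on the second scale, and that of TAP, Psmb8 and Psmb9 was seen on both. Counted per cell, plasma-like cells held a mean of 34.4 H2-K1 UMIs against 10.1 in B-like cells, at median depths of 20862 and 3067 UMIs.

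Basophil-like cells stood below the B-like cells of the same library for H2-K1 and B2m on this second scale too, with ratios of 0.31 (0.25 to 0.37) and 0.38 (0.31 to 0.46) in the control and 0.41 (0.35 to 0.47) and 0.49 (0.42 to 0.57) in the knockout library. H2-D1 gave 1.06 (0.95 to 1.19) and 0.99 (0.89 to 1.09). Psmb9 gave 0.14 in both libraries, with intervals of 0.06 to 0.30 and 0.07 to 0.26.

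Cells within a class also varied. H2-K1, H2-D1 and B2m together took a median of 0.68% of a cell's UMIs in control B-like cells, with the 10th and 90th percentile at 0.41% and 0.95%, and 0.78% (0.52% and 1.09%) in knockout B-like cells. The medians were 0.52% in plasma-like, 0.79% and 1.0% in pDC-like, 0.85% and 0.89% in macrophage-like, 0.97% and 1.09% in NK-like, 1.07% and 1.20% in T-like, and 0.44% and 0.56% in basophil-like cells. The median was higher in the knockout library in each of the 6 classes that both libraries held, and the ranges of single cells overlapped between libraries in every class.

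**Figure D3:**
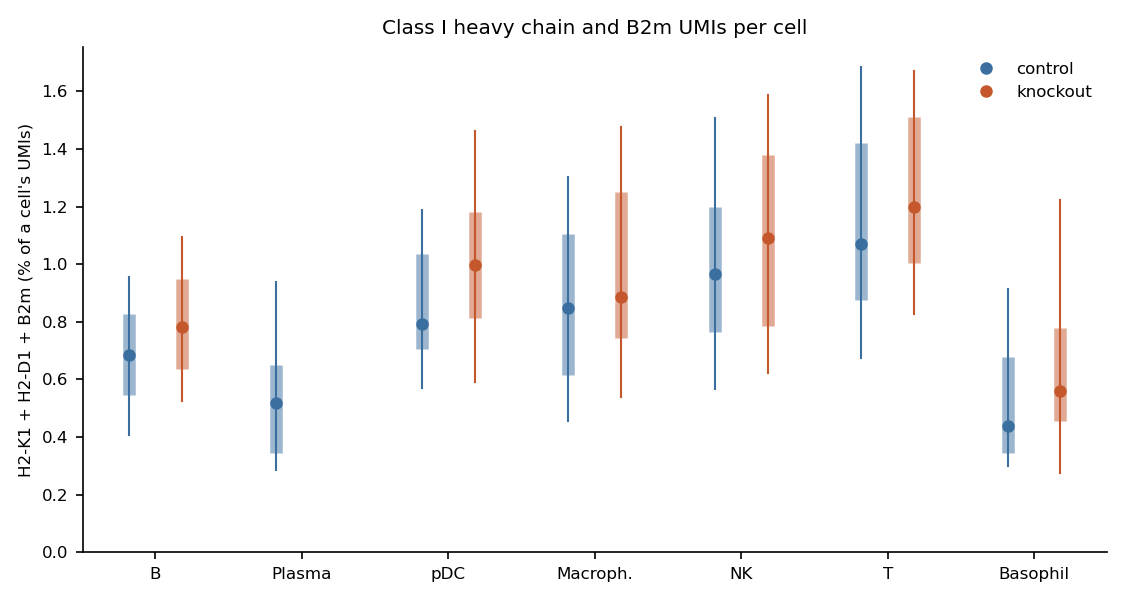
Share of each cell's UMIs taken by H2-K1, H2-D1 and B2m together, in percent, by class and library; points are medians over cells, thick bars the 25th to 75th percentile and thin bars the 10th to 90th percentile. T-like cells have the highest medians (1.07% and 1.20%) and basophil-like cells the lowest (0.44% and 0.56%).

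Between genotypes, the H2-K1 interval lay above 1 in each of the 6 classes that both libraries held, and that of H2-D1 in B-like, pDC-like, NK-like and macrophage-like cells, although thinning turned both macrophage-like ratios below 1. H2-K1 in B-like cells had 2621 and 2963 CPM in the control and knockout library, a ratio of 1.13 (1.07 to 1.20), H2-D1 2507 and 2746 CPM, a ratio of 1.10 (1.03 to 1.16), and B2m 1958 and 2163 CPM, a ratio of 1.10 (1.03 to 1.18). Psmb9 had a ratio of 1.18 (1.01 to 1.37) and Psmb8 of 0.91 (0.81 to 1.02). Tap1 at 0.94, Tap2 at 0.90, Tapbp at 1.01 and Psmb10 at 0.96 had intervals that included 1. None of the 9 genes measured in B-like cells, with at least 50 UMIs over both libraries, was 1.5-fold higher or lower, against 4.99% of all 4128 measured genes higher and 7.12% lower. Their median log2 ratio was 0.01, and that of all measured genes was -0.06. Of all measured genes, 21.1% had a higher ratio than H2-K1 in B-like cells.

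In pDC-like cells, which carry B220, the ratios were 1.36 (1.23 to 1.5) for H2-K1, 1.28 (1.16 to 1.41) for H2-D1, and 0.98 (0.88 to 1.09) for B2m. The other genes had intervals that included 1, with ratios of 1.36 for Tap1, 1.14 for Psmb9, 1.03 for Tapbp, 0.84 (0.70 to 1.003) for Psmb8, 0.83 for Psmb10 and 0.80 for Tap2, so 4 of the 9 measured genes were below 1. A higher ratio than that of H2-K1 was found for 9.11% of the 1558 measured genes. None of 9 genes passed 1.5-fold, against 5.13% of measured genes higher and 5.46% lower. The heavy chains were thus higher in the knockout library in this class without a difference in their light chain beyond counting error.

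In NK-like cells, the most deeply counted class, the ratios were 1.08 (1.05 to 1.12) for H2-K1, 1.15 (1.11 to 1.19) for H2-D1, 1.14 (1.10 to 1.18) for B2m, 0.88 (0.78 to 0.997) for Psmb10 and 1.18 (0.72 to 1.95) for Nlrc5. None of 10 genes passed 1.5-fold, against 2.53% higher and 2.81% lower among 6479 genes. T-like cells gave 1.08 (1.02 to 1.15) for H2-K1, 1.05 (0.98 to 1.13) for H2-D1, 1.05 for B2m and 0.79 (0.63 to 0.97) for Psmb9, with none of 9 past 1.5-fold (5.52% higher and 6.75% lower among 2754 genes). Macrophage-like cells gave 1.21 (1.11 to 1.32) for H2-K1 and 1.10 (1.02 to 1.18) for H2-D1, with none of 9 past 1.5-fold (5.82% higher and 7.51% lower among 3024 genes). Both macrophage-like ratios turned just below 1, to 0.98 and 0.99, when cells were thinned to 1500 UMIs.

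Basophil-like cells held the single gene past 1.5-fold. H2-K1 was at 1009 and 1558 CPM, a ratio of 1.54 (1.22 to 1.96), and B2m at 920 and 1360 CPM, a ratio of 1.48 (1.15 to 1.90), while H2-D1 at 3314 and 3491 CPM had a ratio of 1.05 (0.92 to 1.21). This was 1 of 5 measured genes, against 6.32% higher and 5.15% lower among 680 genes. The H2-K1 ratio was 1.40, short of 1.5-fold, where cells were classed by their own markers. The count of genes past 1.5-fold higher in the class did not change under that setting, so it then rested on another gene. These levels rest on 113 and 204 UMIs of H2-K1.

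Across the 6 classes that both libraries held, H2-K1 and H2-D1 had a ratio above 1 in each and Psmb8 a ratio below 1 in each, out of the 5 genes measured in all of them. Of the 489 genes measured in all 6 classes, 4.70% were above 1 and 4.09% below 1 in every class. The direction turned with thinning to 1500 UMIs for H2-K1 and H2-D1 in macrophage-like cells, as given above, and for Psmb8 in NK-like cells, to 1.04. The H2-D1 intervals of T-like and basophil-like cells included 1. With 1 library per genotype, a difference of B-like cells cannot be told apart from one between whole libraries.

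**Figure D4:**
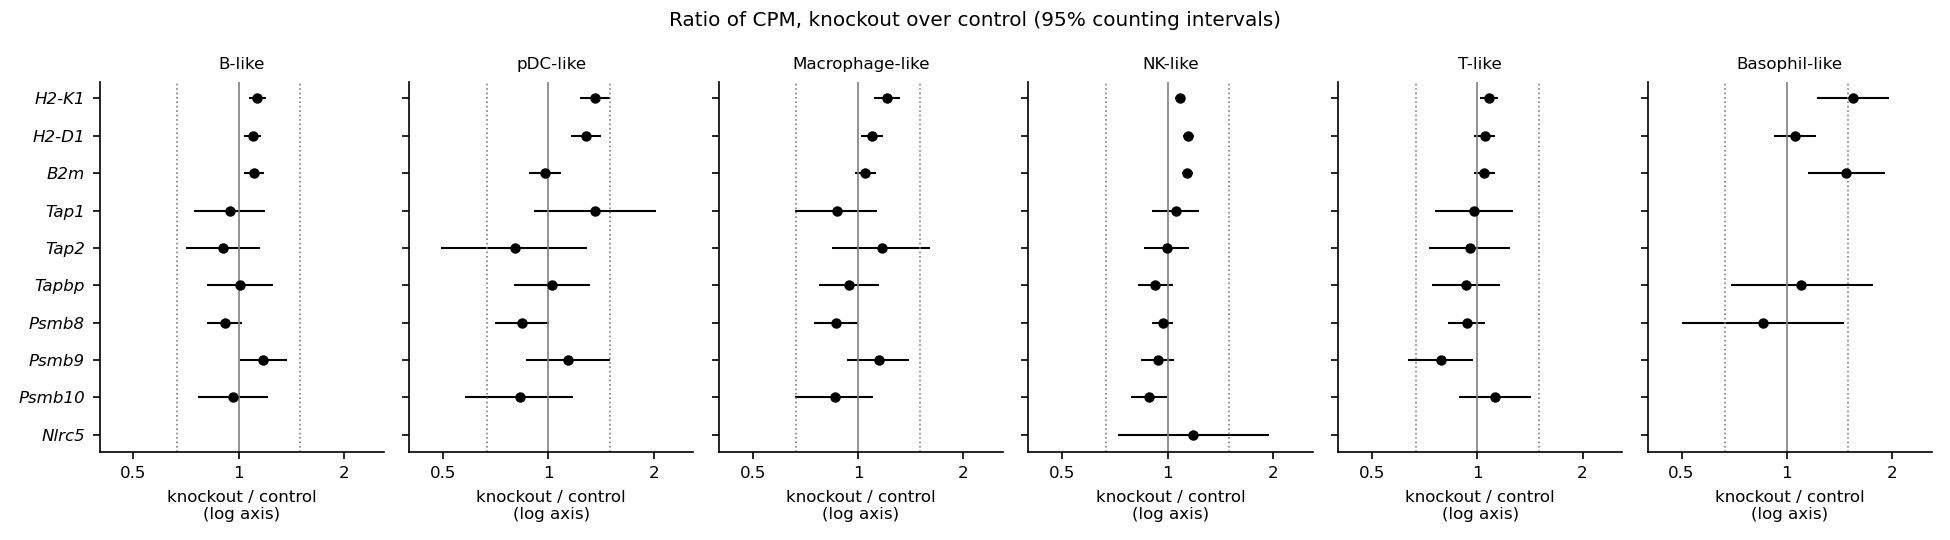
Ratio of CPM in the knockout over the control library for each gene with at least 50 UMIs (log axis), in the 6 classes that both libraries held; bars are 95% counting intervals, the solid line marks 1 and dotted lines 1.5-fold either way. H2-K1 and H2-D1 lie above 1 in every panel (below 1 in macrophage-like cells after thinning), and H2-K1 of basophil-like cells (1.54) is the single point beyond a dotted line.

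The B-like class consisted of 2 clusters whose sizes differed between libraries: a cluster led by Fcer2a (CD23), with 172 control and 111 knockout cells, and a cluster led by Fcrl5, with 54 and 158 cells. B2m differed between them in level and in direction. It was at 1572 and 2043 CPM in the Fcer2a-led cluster, a ratio of 1.30 (1.17 to 1.45), and at 2524 and 2220 CPM in the Fcrl5-led cluster, a ratio of 0.88 (0.81 to 0.96). The B-like ratio of 1.10 therefore summed a higher and a lower value over clusters of unequal size. Median depths in the control and knockout library were 2927 and 2481 UMIs in the Fcer2a-led cluster. In the Fcrl5-led cluster they were 5373 and 2970 UMIs, and ratios within clusters were not taken at equal depth. H2-K1 had a ratio of 1.13 (1.03 to 1.23) in the first and of 1.08 (0.996 to 1.16), an interval that includes 1, in the second. Psmb8 and Tap2 were lower in the Fcrl5-led cluster, at 0.79 (0.68 to 0.92) and 0.73 (0.53 to 0.997), and close to 1 in the Fcer2a-led cluster, at 0.98 and 0.99. No gene of the pathway passed 1.5-fold in either cluster, against 4.98% higher and 5.89% lower of all measured genes in the first and 6.87% and 9.61% in the second.

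The T-like class consisted of 3 clusters. In the cluster led by the gamma delta receptor gene Tcrg-V6 (34 and 36 cells) H2-K1 had a ratio of 1.30 (1.17 to 1.45), H2-D1 of 1.28 (1.14 to 1.44) and B2m of 1.22 (1.08 to 1.38). In the cluster led by Penk (25 and 11 cells) H2-D1 had a ratio of 0.82 (0.71 to 0.94), Tap2 of 0.51 (0.26 to 0.94), Psmb8 of 0.72 (0.56 to 0.91) and Psmb9 of 0.64 (0.43 to 0.92). In the cluster led by Trbv13-3 (10 and 28 cells) the heavy chain and B2m ratios lay between 0.90 and 0.92 with intervals that included 1. The past-1.5-fold genes were 0 of 9 in the Tcrg-V6-led cluster (5.28% higher and 6.27% lower of all measured genes), Tap2 and Psmb9 in the Penk-led cluster (11.5% and 10%), both lower, and Tapbp at 1.52 (0.85 to 2.88) in the Trbv13-3-led cluster (10.8% and 8.06%). The T-like ratios near 1 thus summed clusters that lay on both sides of 1, and the Penk-led values rest on 11 knockout cells.

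In NK-like cells the cluster led by Gzmg (57 and 101 cells) had B2m at a ratio of 1.18 (1.13 to 1.23) and Psmb10 at 0.82 (0.70 to 0.97), and the cluster led by Ccl5 (97 and 146 cells) had H2-K1 at 1.15 (1.09 to 1.21) and H2-D1 at 1.17 (1.11 to 1.24). None of the genes passed 1.5-fold in either (4% higher and 3.27% lower of all measured genes, and 4.31% and 3.02%).

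**Figure D5:**
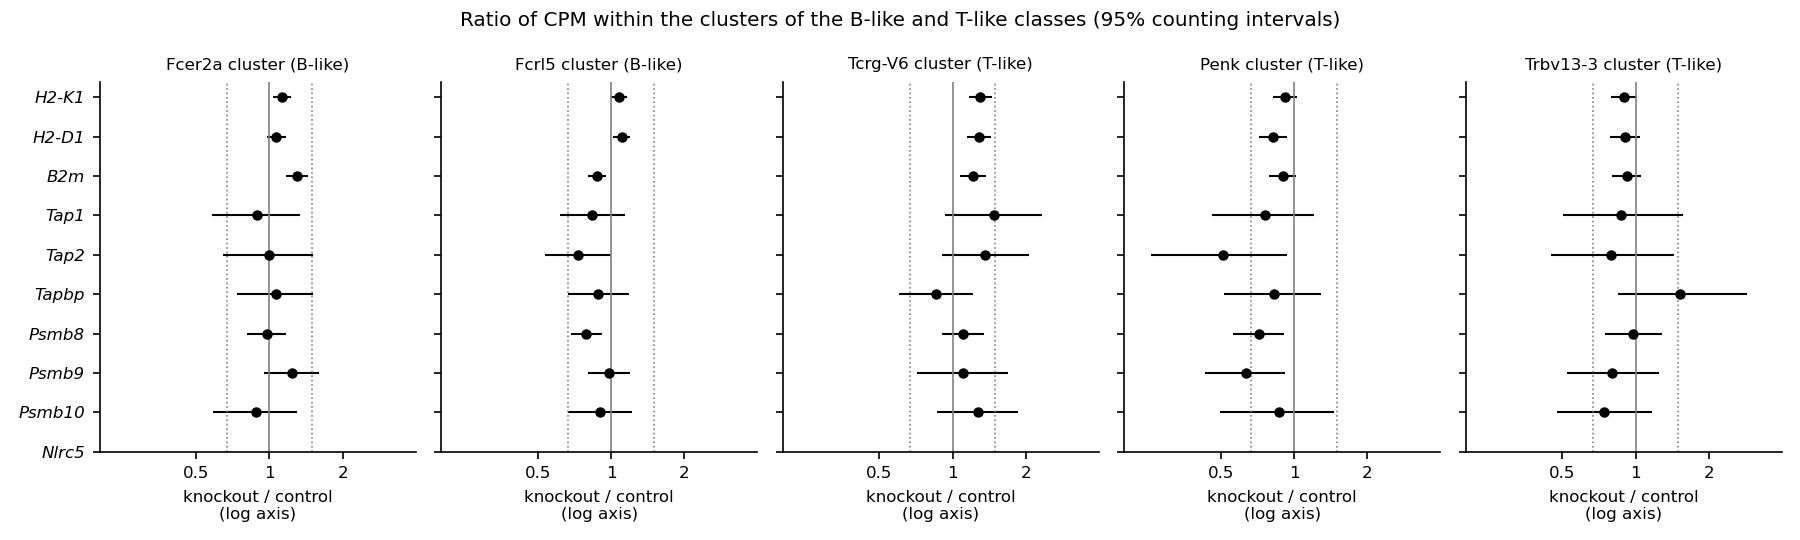
Ratio of CPM in the knockout over the control library within the clusters of the B-like and T-like classes (log axis), for genes with at least 50 UMIs; bars are 95% counting intervals, the solid line marks 1 and dotted lines 1.5-fold. B2m lies above 1 in the Fcer2a-led and below 1 in the Fcrl5-led cluster, and H2-D1 above 1 in the Tcrg-V6-led and below 1 in the Penk-led cluster.

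The B cell receptor libraries allowed B-like cells to be split by the heavy chain class of their receptor. Cells with an IGHM or IGHD contig numbered 70 in the control and 232 in the knockout library, and 141 control but 12 knockout B-like cells had no heavy chain contig. Among IGHM or IGHD cells, H2-K1 was at 3020 CPM (2833 to 3216) in the control and 3046 CPM (2915 to 3182) in the knockout library, H2-D1 at 2686 and 2879 CPM, and B2m at 2213 and 2047 CPM. The H2-K1 difference of the whole B-like class was not found between these cells, whose intervals overlapped. Control cells without a contig had less H2-K1, 2439 CPM (2297 to 2586). Among knockout cells, 25 with a switched receptor had 2764 CPM of H2-K1, 2353 CPM of H2-D1, 2593 CPM of B2m (2377 to 2823) and 528 CPM of Psmb9 (433 to 638). Their Psmb9 and B2m lay above, and their H2-D1 (2147 to 2573) below, the values of the knockout IGHM or IGHD cells, 380 (335 to 430), 2047 (1939 to 2159) and 2879 (2751 to 3011) CPM. Of the switched cells 23 lay in the Fcrl5-led cluster, against 127 of the 232 IGHM or IGHD cells. Within that cluster the Psmb9 intervals overlapped, at 432 to 640 and 339 to 467 CPM, and those of B2m (2401 to 2859 and 1911 to 2198) and H2-D1 (2148 to 2583 and 2844 to 3191) did not. The switched cells were deeper per cell: 25 of them held 565 H2-K1 UMIs, against 2018 in the 232 IGHM or IGHD cells. The groups were not compared at equal depth, so receptor class and depth cannot be told apart here.

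Co-variation was examined within classes and between them. Within a class, cells were thinned to 1500 UMIs each, and cells of 1 library share their pool and handling. H2-K1 and H2-D1 correlated across T-like cells with Pearson's r of 0.47 (67 control cells) and 0.48 (71 knockout cells), and across NK-like cells with 0.35 (154 cells) and 0.42 (244 cells). Across B-like cells r was 0.07 (222 cells) and 0.18 (259 cells), with a mean of about 4 UMIs of each gene per thinned cell, and no finding is read from it. Across basophil-like cells r was 0.04 and 0.78, and the second was 0.52 when cells were thinned to 1000 UMIs. The median r over all 45 pairs of the genes was 0.02 in B-like cells of both libraries, 0.06 and 0.05 in NK-like cells and 0.07 and 0.14 in T-like cells, so most pairs of these sparse genes showed no co-variation that the counts could resolve.

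The summed UMIs of 22 listed interferon-induced genes outside class I were set against the summed heavy chain and B2m UMIs of the same thinned cells. The correlation was 0.51 and 0.57 across T-like cells, 0.38 and 0.37 across NK-like cells, and 0.17 and 0.20 across B-like cells. In pDC-like cells it was -0.02 and 0.48, and in macrophage-like cells 0.25 and -0.17, so the libraries differed in sign in both.

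Between classes, log2 levels were compared over 13 points, 1 per class and library with at least 20 cells, where the 2 libraries of a class are not independent of each other. All 45 pairs correlated positively over all UMIs, with a median r of 0.72, and 42 did so without immunoglobulin, mitochondrial and ribosomal protein UMIs, with a median of 0.66 and a lowest r of -0.21. The closest pairs were B2m with Psmb10 (0.96), Psmb8 with Psmb9 (0.94) and Psmb8 with Psmb10 (0.93). H2-K1 followed Psmb8 at 0.86 and B2m at 0.78, but H2-D1 only at 0.30, and H2-D1 followed B2m at 0.11. Much of this rested on the low plasma-like and basophil-like points. Over the other 10 points 39 of 45 pairs were positive and the median r was 0.49, Psmb8 with Psmb9 gave 0.20, H2-K1 with B2m gave 0.18, and H2-D1 with B2m gave 0.75, whereas B2m with Psmb10 stayed at 0.85.

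The genes most like each of the 10 over the same 13 points were searched among 2844 genes with a mean of at least 50 CPM. For H2-K1 they were Gtf2h5 (r = 0.97), Mrpl15 and Snrpd3, and for H2-D1 Ccdc12 (0.92), Laptm5 and 0610012G03Rik. B2m was followed most closely by Vma21 (0.97), Psme2 (0.96) and Fkbp1a. Tap1 was most like Irgm1 (0.95), Sp100 (0.94) and H2-T22 (0.93), and Tap2 like Med28, Trir and Slc25a39. Tapbp was most like Ppp2ca, Leprot and Trpc4ap. Psmb8 was most like Epsti1 (0.96), 1110004F10Rik and Tmem14c, Psmb9 like Ifi203 (0.96), Naa50 and Mndal, and Psmb10 like Psme2 (0.99), Uqcrb and Ube2n. For Nlrc5 they were Fam162a, Ap2s1 and Ifi213.

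Of 17 other class I and class I-like genes, 7 were measured in B-like cells. None passed 1.5-fold between libraries, 6 of 7 ratios were above 1, and the median log2 ratio was 0.21 against -0.06 over all genes. H2-Q7, a non-classical heavy chain gene, stood at 356 and 459 CPM, a ratio of 1.29 (1.11 to 1.5), and H2-Q6 at 266 and 309 CPM. H2-T23, which encodes Qa-1, stood at 666 and 672 CPM, and H2-T22 at 248 and 244 CPM. In pDC-like cells all 6 measured genes of this list had a ratio above 1, 2 of them past 1.5-fold higher (5.13% of all measured genes), with a median log2 ratio of 0.50 against -0.02 over all genes. There H2-Q6 stood at 94.9 and 184 CPM (1.94, 1.16 to 3.29) and H2-Q7 at 596 and 861 CPM (1.44, 1.16 to 1.79). Reads shared among the H2-Q genes, H2-K1 and H2-D1 may have been dropped or misassigned, so the H2-Q values are uncertain too. In NK-like cells 3 of 6 ratios were above 1 and none passed 1.5-fold. In T-like cells 5 of 6 were above 1 and 1, H2-M3, was past 1.5-fold lower (6.75% of all measured genes) at 0.49 (0.30 to 0.78), named here after its value was seen. In macrophage-like cells 5 of 6 were above 1 and 1 was past 1.5-fold higher (5.82% of all measured genes), H2-Q4 at 1.66 (1.22 to 2.25), named for the same reason.

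Of 13 genes for peptide supply and loading, 12 were measured in B-like, 7 in pDC-like, 9 in macrophage-like, 13 in NK-like, 11 in T-like and 3 in basophil-like cells. None of those measured passed 1.5-fold in these classes, where between 2.53% and 7.51% of all measured genes did so in either direction. Psme1 and Psme2 encode the interferon-inducible proteasome activator PA28. In B-like cells they stood at 542 and 514 CPM and at 329 and 333 CPM. Hspa5, a chaperone of the endoplasmic reticulum, stood at 258 and 320 CPM in B-like cells, a ratio of 1.24 (1.04 to 1.49), and Pdia3, which works in the loading complex, at 227 and 265 CPM.

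Among 19 genes for transcription factors and chromatin regulators of class I genes, 15 were measured in B-like cells, 1 past 1.5-fold higher and 1 lower, shares close to the 4.99% and 7.12% of all measured genes. Irf1, an interferon-induced activator of class I promoters, was at 161 and 120 CPM in B-like cells, a ratio of 0.75 (0.58 to 0.97). Irf8 was at 355 and 308 CPM and Irf2 at 160 and 177 CPM. The 2 genes past 1.5-fold, Nfkb1 at 0.62 (0.45 to 0.83) and Eed at 1.55 (1.0 to 2.44), are named after their values were seen. In basophil-like cells 2 genes of the list were measured and 1 was past 1.5-fold higher (6.32% of all measured genes). This was Irf1 at 179 and 374 CPM, a ratio of 2.09 (1.22 to 3.72). Past 1.5-fold lower were 1 of 16 in NK-like and 1 of 12 in T-like cells (2.81% and 6.75% of all measured genes). In pDC-like and macrophage-like cells 0 of 5 and 0 of 10 passed it.

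Of the 22 interferon-induced genes outside class I, 12 were measured in B-like cells, with 6 ratios on each side of 1, 1 past 1.5-fold higher (4.99% of all measured genes) and a median log2 ratio of -0.03. The clusters of the class lay on opposite sides: 7 of 7 measured genes were above 1 in the Fcer2a-led cluster, 3 of them past 1.5-fold higher, with a median of 0.30, and 8 of 9 were below 1 in the Fcrl5-led cluster, 3 of them past 1.5-fold lower, with a median of -0.33. All measured genes had medians of -0.04 and -0.06 there, with 4.98% past 1.5-fold higher in the first and 9.61% past it lower in the second. Ly6a was at 1318 and 1878 CPM in B-like cells (1.42, 1.32 to 1.54), Ifi27l2a at 1253 and 1201 CPM, Bst2 at 152 and 123 CPM and Isg15 at 34.5 and 44.6 CPM. In pDC-like cells 4 of 9 measured genes were past 1.5-fold higher (5.13% of all measured genes) and the median log2 ratio was 0.53, with Isg15 at 315 and 492 CPM (1.56, 1.17 to 2.10) and Ly6a at 3081 and 4437 CPM (1.44, 1.31 to 1.58). In T-like cells 3 of 20 were past 1.5-fold higher (5.52% of all measured genes), with Isg15 at 440 and 622 CPM and Ifi27l2a lower at 0.73 (0.67 to 0.79). By cluster, 12 of 16 were above 1 in the Tcrg-V6-led (median 0.43), 0 of 7 in the Penk-led (median -0.31) and 5 of 13 in the Trbv13-3-led cluster (median -0.30). Of all measured genes, 434 of 909, 594 of 1150 and 381 of 720 were above 1 there (medians -0.02, 0.02 and 0.04). Past 1.5-fold were 5 higher and 2 lower (5.28% and 6.27% of all), 0 and 1 (11.5% and 10%), and 1 and 3 (10.8% and 8.06%). In NK-like cells 1 of 21 was past 1.5-fold in each direction (2.53% and 2.81% of all measured genes), and Ifi27l2a stood at 87.4 and 228 CPM, a ratio of 2.6 (2.18 to 3.12). In macrophage-like cells 1 of 22 was past 1.5-fold higher and 2 lower (5.82% and 7.51%), with Isg15 at 2948 and 3659 CPM.

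Class II genes were listed for contrast. Of 7 measured in B-like cells, 6 were below 1 and none past 1.5-fold, with a median log2 ratio of -0.16, where 2396 of all 4128 measured genes were below 1. By cluster, 7 of 7 were below 1 in the Fcer2a-led (median -0.13) and 4 of 7 in the Fcrl5-led cluster, where the median of -0.06 was that of all measured genes. H2-Aa had a ratio of 0.89 (0.86 to 0.93), H2-Ab1 of 0.88 (0.84 to 0.92), H2-Eb1 of 0.89 (0.86 to 0.93) and Cd74 of 0.93 (0.92 to 0.95), while H2-K1 and H2-D1 were at 1.13 and 1.10 in the same cells. In T-like cells all 4 measured class II genes were past 1.5-fold higher in the knockout library (5.52% of all measured genes), and there the summed B cell markers were also higher, at 259 and 601 CPM. The part of B cell transcripts in the T-like values was not tested.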

How the data were processed

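The deposited expression matrices give the count of UMIs for each gene in each barcode, and the deposited receptor tables that for each contig. The file headers name Cell Ranger 6.0.0 as the authors' tool. The genome build, GRCm38 (mm10), is from the submitters' processing notes. The 10 genes, the gene lists and the naming rule were chosen with earlier results of these data known. Kept barcodes had at least 200 genes and at most 10% mitochondrial UMIs. Left out were Scrublet calls (1 control, or 0.123% of barcodes, and 5 knockout) and 6 knockout barcodes with 2 heavy chains. Cells were scaled to 10000 UMIs, log-transformed and clustered in Scanpy 1.11.5 without immunoglobulin genes and the class I genes (2000 variable genes, 30 components, 15 neighbours, Leiden resolution 1). A cluster was named where its best of 15 marker lists scored at least 1 in mean log2 difference, at least 3 markers were detected in 10% of cells and at least 1 was among the leading 25 genes. A cluster led by Tnfsf10, with over 90% of its cells from 1 library, was kept out of the NK-like class.

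UMIs were summed per class and library. Intervals are exact Poisson (levels), conditional binomial (ratios) and Clopper-Pearson (shares), at 95%. Only the ratio interval was tried on simulated counts. These were drawn with counting error alone, so the trial says nothing about other sources of error. The intervals leave out variation between cells, pools and libraries, and no replicate error is known. Ratios are given for genes with at least 50 UMIs over both libraries. The named genes are the 10 genes, up to 4 genes per list with the most UMIs, and the 3 genes most like each of the 10 by Pearson's r of log2(CPM + 10). One gene that this rule names is not reported here. Thinning took each cell to 1500 UMIs and left out shallower ones. Python 3.11.15, SciPy 1.17.1 and matplotlib 3.10.9 were used.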

Additional observations from a re-analysis of the deposited data

Results flagged for a closer look

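In 3 places the ratio of knockout over control lay on opposite sides of 1 in 2 groups of cells with neither counting interval reaching 1. Psmb9 had a ratio of 1.18 (1.01 to 1.37) in B-like cells and 0.79 (0.63 to 0.97) in T-like cells. B2m had a ratio of 1.30 (1.17 to 1.45) in the Fcer2a-led cluster and 0.88 (0.81 to 0.96) in the Fcrl5-led cluster of the B-like class. H2-D1 had a ratio of 1.28 (1.14 to 1.44) in the Tcrg-V6-led cluster and 0.82 (0.71 to 0.94) in the Penk-led cluster of the T-like class. With 1 library per genotype these differences were not tested, and the cluster ratios were not taken at equal depth. The 3 places were picked because they met this rule, among the genes of the pathway only. The share of all measured genes that meets it is not given, nor is the number of pairs of groups searched. Whether 3 places are more than other genes would give was not tested.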

How the results depend on the processing

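No paired analysis was possible because each genotype has 1 library. Of 264 class summaries (counts of genes past the fold and median log2 ratios, under each alternative) 248 stayed within their range and 16 did not. Of the genes past 1.5-fold, basophil-like cells had 2 higher with a mean over cells, with a minimum of 10 UMIs and at the lower fold threshold, in place of 1. At that threshold pDC-like cells had 3 higher and T-like cells 1 lower, in place of 0. Thinning gave pDC-like cells 1 higher and macrophage-like cells 1 lower, and a minimum of 10 UMIs gave B-like cells 1 lower. Leiden resolution 0.5 gave macrophage-like and NK-like cells 1 higher each, with an NK-like median of 0.19. NK-like cells also had 1 higher with doublets kept and with the Tnfsf10-led cluster added, an alternative chosen after seeing the data. Clustering with the class I genes gave T-like cells 2 higher, 1 lower and a median of 0.21. The cause of these shifts was not tested. Of the 655 single-gene ratios, where each gene and class counts again under every alternative, 38 moved, and ratios near 1 crossed it. They were spread unevenly: thinning to 1500 UMIs moved 17 of 43 ratios. It also moved 16 of 52 shares of gene pairs. A reversal was counted only where the main ratio was past 1.5-fold. That held for H2-K1 of basophil-like cells alone, whose ratio stayed between 1.40 and 2.07. The other ratios could not be counted as reversed. Levels moved in 230 of 1690 cases, 92 of them without immunoglobulin, mitochondrial and ribosomal protein UMIs. The H2-K1 ratio in B-like cells ranged from 1.08 to 1.21 over 14 settings, the main one included. Depth limits Nlrc5 everywhere and Tap1, Tap2, Psmb9 and Psmb10 in basophil-like cells.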

Other observations

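Clusters outside the 7 classes gave values for the same genes that belong in no comparison above. A cluster led by Tnfsf10, which held 2 control and 55 knockout cells, had the highest H2-K1 level of any group with over 10 cells, 6525 CPM, with H2-D1 at 5769, Tap1 at 579.6, Tap2 at 532 and Nlrc5 at 116 CPM, but Psmb8 at 450.0 and Psmb9 at 164 CPM. Its cells were shallow, with a median of 2091 UMIs. A cluster of 2 control and 5 knockout cells led by Fscn1, a gene of mature dendritic cells, had H2-K1 at 4918 and 6011, B2m at 5732 and 7022 and Psmb8 at 2556 and 1966 CPM.

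A cluster led by S100a9 (73 and 17 cells), neutrophil-like by the naming rule, had B2m at 5025 and 5898, H2-K1 at 1394 and 2554 and H2-D1 at 1972 and 3442 CPM. The ratios there were 1.83 (1.55 to 2.15) for H2-K1, 1.75 (1.52 to 2.00) for H2-D1 and 2.19 (1.24 to 3.73) for Tapbp. Of 7 measured genes of the pathway, 4 were past 1.5-fold higher and 0 lower, against 132 and 167 of all 1243 measured genes. A cluster led by Ifit3 (13 and 18 cells) had Psmb9 at 869 and 781 CPM, and H2-K1 at 2877 and 3041 CPM. A cluster led by Ace (23 and 14 cells) had H2-K1 as 35.1% and 42.5% of both heavy chains, and a cycling cluster led by Pclaf (27 and 35 cells) had H2-K1 at 2523 and 2369 CPM.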
